A study of Caenorhabditis elegans with 4 samples.

Results

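Transcript levels of the *C. elegans prg-1* mutant were compared between the last larval stage, L4, and the second, L2. The L4 group was 1 library of poly(A) RNA from whole worms and so was the L2 group, both of the *prg-1* mutant (strain label wm161) at 20 °C with OP50 bacteria as food. The mutant carries a lesion in *prg-1*, the gene of the Piwi-family Argonaute that binds the worm's piRNAs, and all 4 mRNA libraries of the series (L1, L2, L3 and L4) carry it, so no comparison with wild type was made. How the worms were staged and how many were pooled is not given in the sources used here.

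Of 46096 genes listed in both libraries, 15473 were compared. These are the genes with an estimate of status OK in both libraries and a level of at least 1 FPKM in one of them (sequenced fragments per kilobase of a transcript, relative to all mapped fragments). 13145 of them were protein-coding. A gene was called higher or lower at L4 when log2((FPKM + 1) at L4 / (FPKM + 1) at L2) was at least 1 in size and the 95% intervals that Cufflinks gave for the 2 values did not overlap. Each such interval describes 1 library. With 1 library per stage the spread between cultures is unknown, no test was possible and no p-value is given.

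As background, a larva of *C. elegans* makes a new collagen-rich cuticle before every molt, with collagen genes that are partly shared between stages and partly stage-specific. The germ line holds few, dividing cells early in larval life. By L4 it has grown, its older cells are in meiosis and the hermaphrodite makes sperm, while oocytes and the intestinal yolk proteins that feed them belong to the adult. The vulva, uterus and gonadal sheath are also completed in L4.

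Among the 15473 genes, 778 were called higher at L4 (5.03%) and 368 were called lower (2.38%). The higher group held 716 protein-coding genes and the lower group 334. The larger differences lay mostly on the higher side, where 238 genes were 4-fold or more apart and 124 were 8-fold or more, against 47 and 18 on the lower side. At L2, 123 of the genes called higher were listed at 0, and 55 of the genes called lower were listed at 0 at L4. The median log2 difference over all 15473 genes was -0.03, with 5th and 95th percentiles of -1.34 and 1.67. A further 1512 genes were at least 2-fold apart with intervals that overlapped, and 1159 of these were not protein-coding.

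The 2 libraries were of similar depth, with 1 fragment worth about the same in each (commonest ratio of low values 1.047, L2 over L4, at 464 of 2450 low genes). In 2853 of the genes compared, the FPKM lay outside its own interval in at least one of the libraries, and 246 of the called genes were among them. This is said below where it touches a named gene, and such values are less certain. All of the 57 genes with a log2 difference of 8 or more in size spanned at most 100 bases, and none was protein-coding. The genes nearest the bound were *dct-16* and C29A12.1 just inside on the higher side, with F37A4.5 and D2005.4 just outside. *dct-16* had 8709 FPKM at L4, against 4350 at L2, and D2005.4 had 5.62 at L4, against 2.32 at L2. On the lower side *unc-2*, at 24.7 FPKM at L4 and 50.4 at L2, was just inside, and *feh-1*, at 11.3 at L4 and 23.6 at L2, was just outside.

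**Figure D1:**
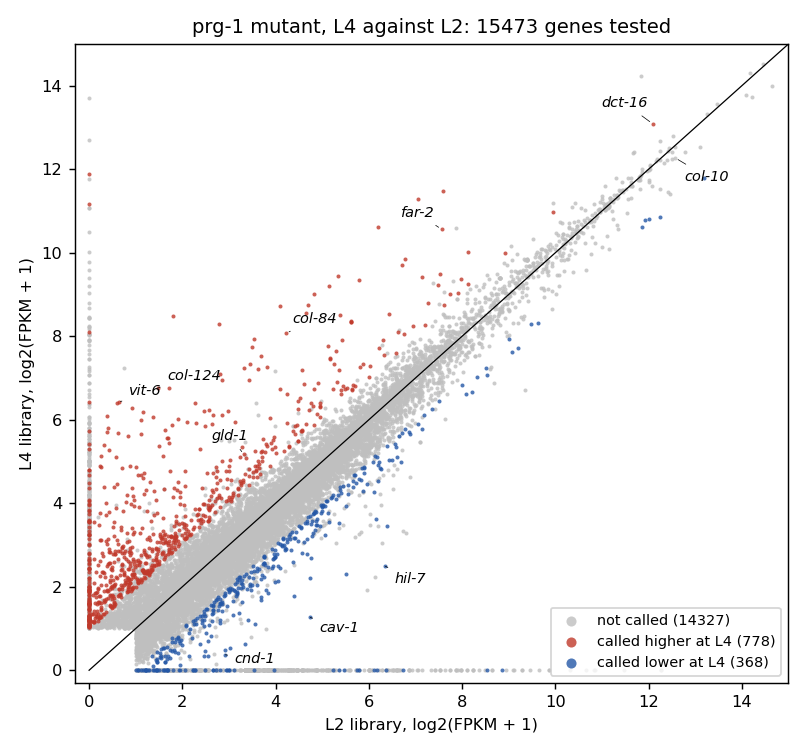
Level of each gene compared in the L4 library (vertical axis, log2(FPKM + 1)) against its level in the L2 library (horizontal axis, same scale), 1 point per gene, with the line of equal levels. The 778 genes called higher at L4 reach farther from the line than the 368 called lower, and genes listed at 0 in one library lie on an axis.

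*prg-1* itself was at 23.6 FPKM (21.6 to 25.6) at L4, against 11.7 (10.3 to 13) at L2, a log2 difference of 0.96, which missed the bound. These values count reads over the gene as a whole and so cannot verify the lesion. Its close relative *prg-2*, annotated as a pseudogene, was called higher, at 19.5 FPKM (16.7 to 20.8) at L4 and 6.81 (5.52 to 7.92) at L2. Whether *prg-1* and *prg-2* share reads was not tested. The embryonic endoderm genes *end-1* and *med-1* were at 0.184 and 0 FPKM at L4, and both were listed at 0 at L2. *elt-2*, which specifies the intestine, was level at 8.34 FPKM at L4 and 8.48 at L2. Of the larval timing genes, *lin-28*, an RNA-binding protein of early stages, was at 13.8 FPKM (11.4 to 16.2) at L4 and 25.22 (21.9 to 28.6) at L2, and *lin-14*, a transcription factor of the same stages, was at 19.2 at L4 and 32.7 at L2. Their intervals were apart, but neither met the bound of size.

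Germline genes were called higher far more often than genes overall. The lists for germline RNA regulators, meiotic chromosomes, P granules, oocytes and eggshell, major sperm proteins and other sperm genes held 206 genes together, of which 166 were compared, 84 were called higher and 1 was called lower. A gene could be among the 166 through its L4 level alone, so the count of 84 is also to be read against the 206. None of the 166 lay on the X chromosome, which holds 4 of the 206. In RNA of whole worms, more germ cells and more RNA per germ cell cannot be told apart.

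Genes that control translation and fate in germ cells were more abundant at L4. Of 21 regulators compared, 11 were called higher and none lower, against 5.03% and 2.38% of all genes compared. The median log2 difference of the 21 was 1.10. *gld-1*, a translational repressor needed for meiosis and oogenesis, had 35.0 FPKM (32 to 37.9) at L4, against 9.0 (7.54 to 10.5) at L2, a log2 difference of 1.85. *glp-1*, the Notch receptor that keeps germ cells dividing, had 7.80 FPKM (6.96 to 8.63) at L4, against 2.08 (1.65 to 2.49) at L2. *daz-1*, the worm member of the DAZ family of RNA-binding proteins, had 33 FPKM at L4, against 9.27 at L2. *rnp-8*, a partner of the poly(A) polymerase GLD-2, was called higher as well (13.6 FPKM at L4, 4.12 at L2), whereas *gld-2* itself was at 46.2 at L4 and 58.5 at L2 and *nos-3*, a Nanos relative, was at 35.0 at L4 and 31.7 at L2.

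Meiotic chromosome genes gave the same picture, with 19 of 37 called higher, none lower and a median of 1.06. Over all genes compared the shares were 5.03% higher and 2.38% lower. *htp-3* and *him-3*, which build the chromosome axis, had 8.64 FPKM (7.02 to 10.1) and 7.63 (5.22 to 9.06) at L4, against 1.87 (1.29 to 2.43) and 1.48 (0.724 to 2.17) at L2. *syp-4*, of the central part of the synaptonemal complex, had 8.17 FPKM (6.44 to 9.64) at L4, against 1.45 (0.913 to 1.96) at L2. *dsb-1*, needed for meiotic DNA breaks, had 4.70 FPKM (3.44 to 5.97) at L4, against 0.624 (0.078 to 1.17) at L2. Members that were not called included *rad-51*, the recombinase that also serves repair in other cells, at 10.3 FPKM at L4 and 10.4 at L2, *him-17* at 15.9 at L4 and 14.5 at L2, and *cra-1* at 22.4 at L4 and 23 at L2. *him-8*, which pairs the X chromosomes, was listed at 2.77 FPKM at L4 and 61.4 at L2, but its interval at L2 ran from 0.683 to 155 and it was not called.

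Of 12 P granule genes compared, 5 were called higher and none lower, against 5.03% and 2.38% of all genes compared. *glh-1*, a Vasa-like helicase, had 74.5 FPKM (66.1 to 74.7) at L4, against 25.12 (21.7 to 26.6) at L2. *pgl-1*, a scaffold of the granules, had 26.4 FPKM (24.1 to 28.7) at L4, against 11 (9.59 to 12.4) at L2, and its relative *pgl-3* had 7.67 at L4, against 2.53 at L2. *deps-1* was at 14.5 FPKM at L4 and 5.18 at L2. *car-1* and *cgh-1*, which also act in RNA granules outside the germ line, were at 178 and 99.5 FPKM at L4, against 155 and 64.6 at L2, and were not called.

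Against 5.03% higher and 2.38% lower over all genes compared, Argonaute genes followed with 6 of 17 higher and none lower. Besides *prg-2* these included *csr-1*, at 39.6 FPKM (37.2 to 42.2) at L4 and 15 (13.5 to 16.4) at L2, *ppw-2* at 38.6 at L4 and 14.1 at L2, and *wago-1* at 29.8 at L4 and 11.6 at L2. The genes of the miRNA pathway Argonautes stood apart from these, since *alg-1* was at 50.5 FPKM at L4 and 68.0 at L2, and *alg-2* was at 23 at L4 and 33.2 at L2.

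The stages followed each other gradually in most of these genes. For 11 of the 11 regulators, 18 of the 19 meiotic genes, 4 of the 5 P granule genes and all 6 Argonautes, the L3 library lay between L2 and L4, and in most it was nearer to L2. *glp-1* stood at 1.48, 2.08, 4.51 and 7.80 FPKM at L1, L2, L3 and L4, and *htp-3* at 1.88, 1.87, 3.66 and 8.64.

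**Figure D2:**
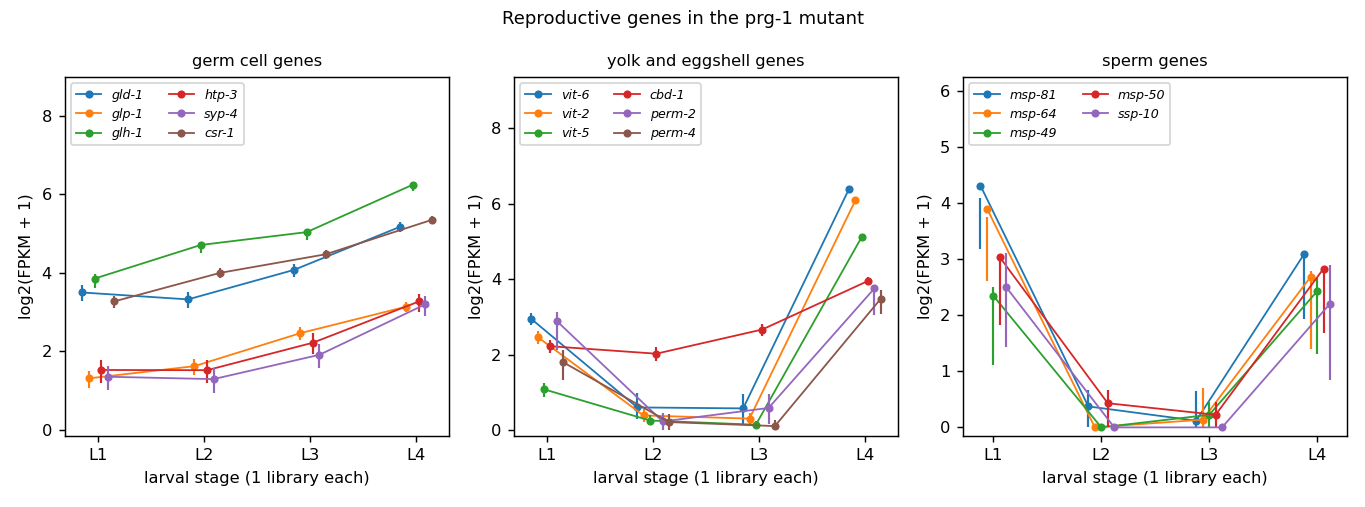
Levels (vertical axes, log2(FPKM + 1)) of germ cell, yolk and eggshell, and sperm genes in the 4 larval libraries (horizontal axes, 1 library per stage), with points for the deposited value and vertical lines for its 95% interval. Germ cell genes step up through L3 to L4, the yolk genes are low at L2 and L3 and high at L4, and the sperm genes are higher at L1 and L4 than at L2 and L3.

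Yolk genes formed the only one of the 54 lists examined in which each compared member was called. All 6 vitellogenin genes were called higher, with a median log2 difference of 4.76, and their summed level was 261.3 FPKM at L4, against 1.85 at L2. *vit-6*, whose product is cleaved into smaller yolk proteins, had 83.3 FPKM (80.5 to 87.1) at L4, against 0.518 (0.219 to 0.982) at L2. *vit-2* had 67.3 FPKM (64.6 to 70.5) at L4, against 0.309 (0.151 to 0.469) at L2. The other members, which are near-identical in part and can share reads, were at 33.9 (*vit-5*), 28.6 (*vit-3*), 28.4 (*vit-4*) and 19.8 FPKM (*vit-1*) at L4, against 0.184 to 0.453 at L2. The lists of yolk and germline genes differed in place, since 5 of the 6 vitellogenin genes are on the X chromosome. L3 was below L2 in all 6, with summed levels of 14.7, 1.85, 1.14 and 261.3 FPKM at L1, L2, L3 and L4.

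Oocyte and eggshell genes were higher at L4 in 13 of 33 cases and lower in 1, against 5.03% and 2.38% of all genes compared. *perm-2* and *perm-4*, parts of the eggshell's permeability barrier, had 12.56 FPKM (7.34 to 12.9) and 10.2 (7.41 to 12) at L4, against 0.173 (0 to 0.372) and 0.160 (0 to 0.337) at L2. *cbd-1*, a chitin-binding eggshell protein, had 14.5 FPKM (13.4 to 15.8) at L4, against 3.08 (2.54 to 3.61) at L2. *cpg-1* and *cpg-2*, chondroitin proteoglycans of the eggshell, had 12.3 and 9.97 FPKM at L4, against 4.02 and 2.51 at L2. The Y-box RNA-binding genes *cey-2* and *cey-3* had 45.8 and 33.6 FPKM at L4, against 12.4 and 8.42 at L2. The 1 called lower was *cav-1*, a caveolin gene that the list holds for its part in oocytes and that neurons also use, at 1.40 FPKM (0.534 to 2.28) at L4 and 25.8 (21.9 to 29.8) at L2, a log2 difference of -3.48. The maternal regulators *mex-3*, *lin-41* and *mbk-2* were at 23.9, 38.8 and 59.2 FPKM at L4, against 30.1, 62.9 and 82.8 at L2, and were not called.

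Sperm transcripts were higher at L4 than at L2, at low levels. Of 31 major sperm protein genes compared, all 31 had a positive log2 difference and 20 were called higher, with a median of 1.98. None was called lower, and over all genes compared 5.03% were called higher and 2.38% lower. *msp-81* had 7.5 FPKM (2.80 to 7.84) at L4, against 0.295 (0 to 0.586) at L2, *msp-50* had 6.10 (2.22 to 6.28) at L4, against 0.347 (0 to 0.580) at L2, and *msp-64* had 5.41 at L4 and was listed at 0 at L2. The family is near-identical in sequence, so the share of each gene is uncertain and the sum is firmer. That sum was 164.7 FPKM at L4, against 20.6 at L2. Outside this family 61 sperm genes were listed, and 29 of them were under 1 FPKM in both libraries and not compared. A gene could pass that bound through its L4 level alone. Over all 61 the median log2 difference was 0.62 and 26.2% were called higher. Of the 32 compared, 16 were called higher and none lower. They included *gsp-3*, a sperm phosphatase (1.46 FPKM at L4, 0.105 at L2), *spe-44*, a transcription factor of sperm formation (1.97 at L4, 0.374 at L2), *cpb-1*, a translational regulator of spermatocytes (3.28 at L4, 0.704 at L2), and 4 *msd* genes, which encode proteins with a major sperm protein domain. The L1 library held more of these transcripts than either, with summed major sperm protein levels of 368, 20.6, 7.85 and 164.7 FPKM at L1, L2, L3 and L4. All 20 major sperm protein genes called higher at L4 were nearer to L4 than to L2 at L1. What brought them into the L1 library was not tested.

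Against 5.03% higher and 2.38% lower over all genes compared, 4 of 12 gonadal innexin and sheath genes were called higher and none lower. These were the gap junction genes *inx-22*, *inx-21* and *inx-8*, at 3.88, 4.07 and 1.98 FPKM at L4, against 0.581, 1.47 and 0.452 at L2, and *fkh-6*, a forkhead factor of the gonad, at 4.31 at L4 and 0.926 at L2. The 4 were 2 after rescaling to TPM. *ceh-18*, a sheath cell homeobox gene, was at 18.7 FPKM at L4 and 29 at L2, and *gon-1*, a protease that shapes the gonad, was at 8.88 at L4 and 12.7 at L2. Of 12 sex determination genes compared, 2 were called higher and none lower, and the 2 were 1 after rescaling to TPM. They were *fog-2*, which permits sperm in hermaphrodites, and *mab-3*, a regulator of male traits and of yolk genes. These 2 had 3.32 and 4.88 FPKM at L4, against 1.05 and 1.78 at L2. *her-1*, the secreted signal of male fate, was listed at 0 in both libraries.

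Genes of cell division did not move with the germline lists. None of 34 DNA replication genes was called in either direction, against 5.03% higher and 2.38% lower over all genes compared, and their median was 0.04. *rnr-1* and *rnr-2*, the subunits of ribonucleotide reductase, were at 50.5 and 37.5 FPKM at L4, against 55.0 and 36.7 at L2. *pcn-1*, the sliding clamp, was at 57.6 at L4 and 66.7 at L2. Of 52 cell-cycle and mitosis genes, 1 was called higher, *cyb-2.2*, a cyclin B gene (3.61 FPKM at L4, 0.512 at L2), and 1 lower, *cdc-25.2*, a phosphatase that activates Cdk1 (8.32 FPKM, 6.15 to 9.63, at L4, against 26.7, 21.1 to 26.8, at L2).

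**Figure D3:**
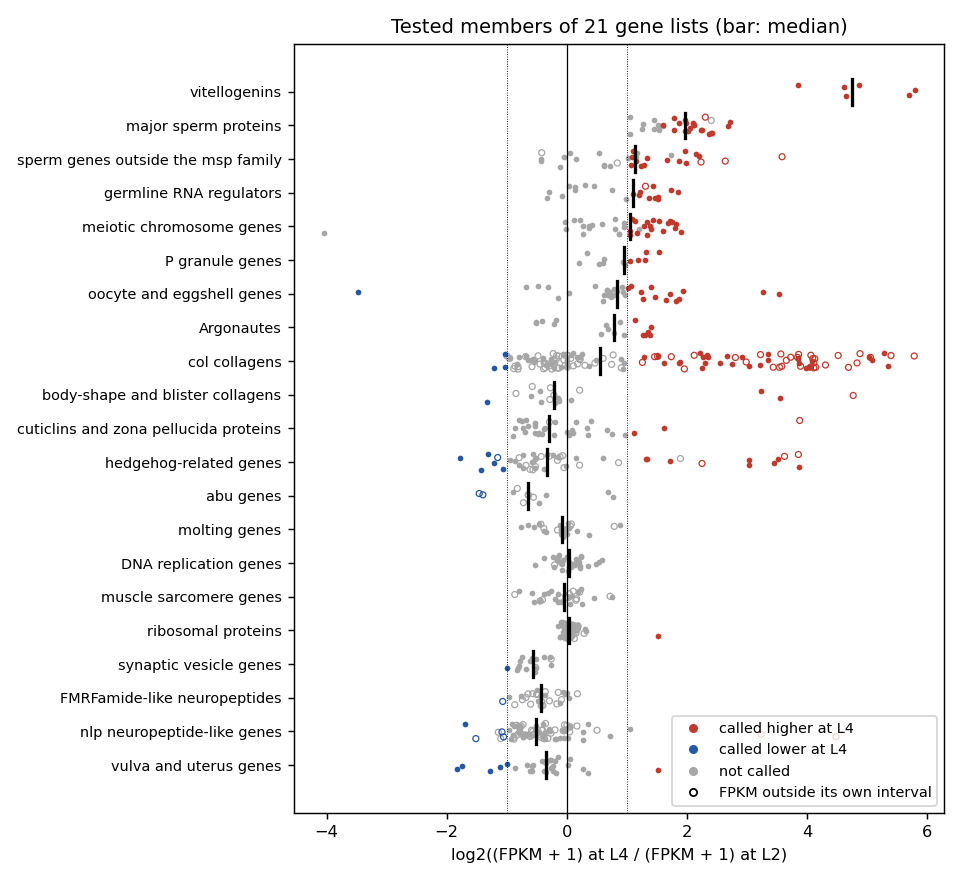
Log2((FPKM + 1) at L4 / (FPKM + 1) at L2) of each compared member of gene lists (1 point per gene, black bar for the list's median, dotted lines at -1 and 1, open points for genes whose FPKM lies outside its own interval). Yolk, sperm and germline lists sit right of 0, and collagens spread from -1.21 to 5.79. The medians of the synaptic and neuropeptide lists lie left of 0, and the *nlp* list also holds *cnc* genes.

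Both libraries were rich in cuticle collagen transcripts, and by nearly the same amount. The 160 genes named *col* summed to 64636 FPKM at L4, against 65042 at L2, which is 7.74% of the summed FPKM of protein-coding genes at L4 and 7.79% at L2. Within that constant total the members differed widely. Of 138 compared, 62 were called higher at L4 and 3 lower, against 5.03% and 2.38% of all genes compared. The log2 differences of the 138 ran from -1.21 to 5.79. The 62 genes summed to 8908 FPKM at L4, against 1370 at L2, so they carried a small part of the collagen total in both libraries. The 73 collagens that were compared and not called summed to 55710 FPKM at L4, against 63638 at L2, and 40 of them had a value outside its interval.

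The largest differences were in collagens that were nearly absent at L2. *col-140* had 76.3 FPKM (69.5 to 83.1) at L4, against 0.896 (0 to 1.74) at L2, a log2 difference of 5.35. *col-124* had 107.5 FPKM (99.7 to 115) at L4, against 1.78 (0.890 to 2.69) at L2, and *col-181* had 72.0 (65.7 to 78.4) at L4, against 1.23 (0.499 to 1.97) at L2. *col-106* had 41.3 FPKM (36.6 to 46) at L4, against 0.247 (0 to 0.618) at L2. *col-8* and *col-88* were at 16 and 14.8 FPKM at L4 and were listed at 0 at L2. *col-84* reached a higher level, with 267 FPKM (256 to 281) at L4, against 17.6 (14.8 to 20.4) at L2. The 2 largest log2 differences as listed, *col-122* (84.7 FPKM at L4, 0.554 at L2) and *col-81* (54.6 at L4, 0.320 at L2), had an L4 value above its own interval. The same holds for *col-19*, known as a collagen of the adult cuticle, at 50.5 FPKM (interval 37.3 to 47.4) at L4 and 0.547 (0.175 to 0.962) at L2. *col-7*, another collagen known from the adult, had 7.90 FPKM (5.16 to 9.07) at L4, against 0.327 (0 to 0.610) at L2. Of the 62 collagens called higher, 29 had both values inside their intervals. The 3 collagens called lower were *col-131* (7.82 FPKM at L4, 17 at L2), *col-53* (2.22 at L4, 5.55 at L2) and *col-186* (1.72 at L4, 5.31 at L2).

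The most abundant collagens were shared by the 2 stages. Of the 22 *col* genes that reached 1000 FPKM in one library, 1 was called, *col-42*, with 1027 FPKM (1013 to 1065) at L4, against 279.8 (267.8 to 294.5) at L2, and the median log2 difference was -0.21. *col-10* stood at 4957 FPKM at L4 and 6061 at L2, *col-144* at 4845 at L4 and 5767 at L2, *col-117* at 4759 at L4 and 5360 at L2, and *col-3* at 4579 at L4 and 5150 at L2, all with values outside their intervals in both libraries.

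Collagens known from mutants with altered body shape were mostly lower at L4 by less than 2-fold, while those of the adult blister phenotype were higher. The whole list summed to 10658 FPKM at L4, against 15853 at L2. Of 18 compared, 3 were called higher and 1 lower, against 5.03% and 2.38% of all genes compared. The median of the 18 was -0.21. The interval at L4 lay wholly below that at L2 in 9 of the 18 and above in 4, against 13.3% and 12.2% of all genes compared. *bli-1* and *bli-2*, whose collagens form struts in the adult cuticle, had 15.4 FPKM (13.3 to 16.9) and 25.6 (18 to 25.8) at L4, against 0.737 (0.448 to 1.02) and 1.28 (0.550 to 1.93) at L2. *bli-6* was the third, at 47.7 FPKM at L4, above its own interval of 35.0 to 44.3, and 0.788 at L2. *dpy-14* was the one called lower, at 0.406 FPKM at L4 and 2.55 at L2. *sqt-3*, a collagen needed at all stages, stood at 1784 FPKM (1771 to 1843) at L4 and 2418 (2399 to 2494) at L2, *sqt-1* at 711 at L4 and 1075 at L2, and *dpy-7*, of the furrow collagens, at 142 at L4 and 157 at L2. These were not called.

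The position of the other stages split the collagens called higher. L3 was below both L2 and L4 in 33 of the 62, between them in 24 and above both in 5. At L1, 30 were nearer to L4 and 32 nearer to L2. *col-124* stood at 28.8, 1.78, 2.53 and 107.5 FPKM at L1, L2, L3 and L4, *col-181* at 24.8, 1.23, 0.584 and 72.0, and *col-84* at 1.68, 17.6, 5.66 and 267. Collagens such as *col-124* were therefore present at L1, low at L2 and L3 and highest at L4, whereas *col-84* was lowest at L1. The reason for the levels at L1 was not tested.

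None of 12 collagen processing enzymes was called, and none of 26 molting genes. Lists of this size hold few calls at the shares of all genes compared, 5.03% higher and 2.38% lower. The interval at L4 lay wholly below that at L2 in 10 of the 26 molting genes and above in 3, and below in 3 of the 12 enzymes and above in 5. *pdi-2*, a subunit of collagen prolyl hydroxylase, was at 1709 FPKM at L4 and 1358 at L2, and *mlt-11*, a protease inhibitor of the molt, was at 162 (159 to 165) at L4 and 169 (167 to 172) at L2. *noah-1*, an apical matrix protein, was at 264 FPKM at L4 and 237 at L2. Of 33 cuticlins and zona pellucida proteins, 3 were called higher and none lower. *cut-1*, a cuticlin first known from dauer larvae, was the largest, at 160.4 FPKM at L4 (above its interval of 136 to 154) and 9.98 at L2. *cut-6*, of the same kind, had 7.95 FPKM (6.65 to 9.25) at L4, against 1.90 (1.25 to 2.56) at L2, and *fbn-1*, a fibrillin-like matrix gene, had 23.7 (22.7 to 24.7) at L4, against 10.4 (9.76 to 11.1) at L2. *cut-2* was at 908 FPKM at L4 and 1110 at L2, with both values outside their intervals.

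The hedgehog-related family, secreted proteins that are mostly made by the epidermis, moved in both directions. Of 49 compared, 11 were called higher and 6 lower, against 5.03% and 2.38% of all genes compared. The median of the 49 was -0.33. All 11 that were higher belong to the *grl* and *grd* groups. *grl-17* had 46 FPKM (41.7 to 50.2) at L4, against 2.22 (1.31 to 3.11) at L2. *grl-23* had 122.5 FPKM (114 to 131) at L4, against 9.83 (7.64 to 12) at L2, and *grl-20* had 153.5 (142 to 165) at L4, against 13.1 (10.2 to 16.1) at L2. The lower members included *grl-1*, at 5.08 FPKM (3.73 to 6.44) at L4 and 19.8 (16.9 to 22.5) at L2, *grd-12* at 6.49 at L4 and 17.7 at L2, and *wrt-8* at 1.98 at L4 and 5.95 at L2. *grl-16* and *grl-7*, at 459 and 184 FPKM at L4 and 678 and 308 at L2, were the most abundant members with values inside their intervals and missed the bound. In 10 of the 11 higher genes L3 was below both L2 and L4, as for *grl-23* at 4.64, 9.83, 2.35 and 122.5 FPKM at L1, L2, L3 and L4. The patched-related genes, relatives of the hedgehog receptor, had no call in 26, with a median of -0.28. The interval at L4 lay wholly below that at L2 in 14 of these 26 and wholly above in 4, where over all genes compared it lay below in 13.3% and above in 12.2% at any size of difference.

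**Figure D4:**
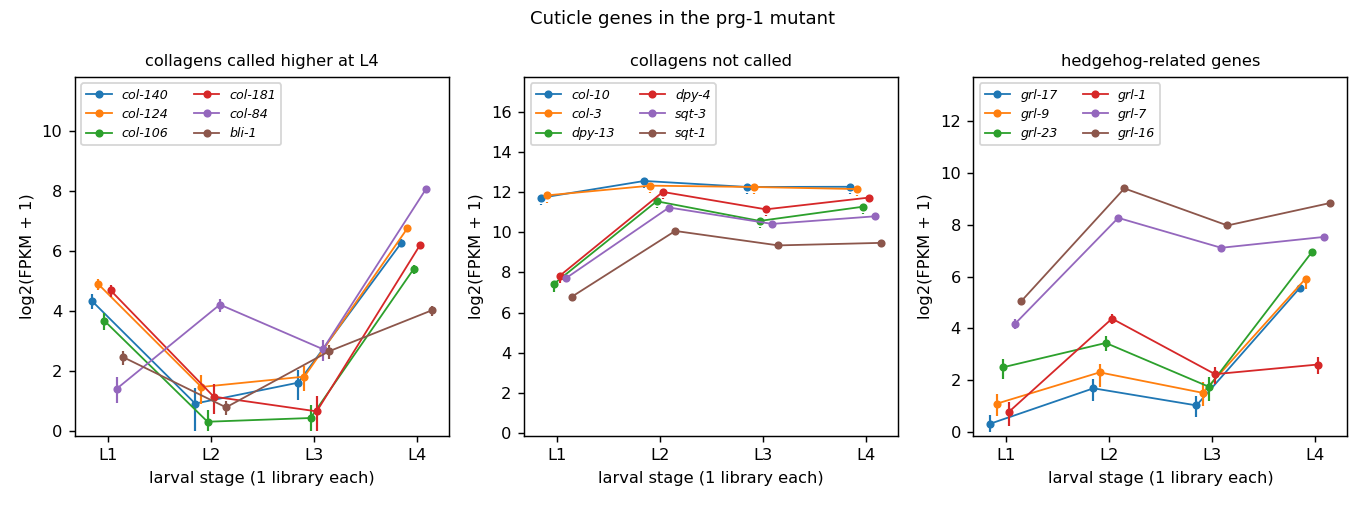
Levels (vertical axes, log2(FPKM + 1)) of collagen and hedgehog-related genes in the 4 larval libraries (horizontal axes, 1 library per stage), with points for the deposited value and vertical lines for its 95% interval, which for *col-10*, *col-3*, *dpy-13* and *dpy-4* misses the value. Collagens called higher at L4 were low at L2, the abundant collagens stayed within a narrow range after L1, and *grl-17*, *grl-9* and *grl-23* were highest at L4 while *grl-1* was highest at L2.

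Pharyngeal cuticle genes leaned the other way. The *abu* genes, which encode proteins of the pharyngeal cuticle, summed to 984.5 FPKM at L4, against 1765 at L2, with a median of -0.64 over 12 members. The interval at L4 lay wholly below that at L2 in 10 of the 12 and above in 1, against 13.3% below and 12.2% above over all genes compared. In 7 of the 12 a value lay outside its own interval, and without these 7 the median was -0.34 and none was called. *abu-14* had 340 FPKM (330 to 355) at L4, against 635 (619 to 659) at L2, and missed the bound. *abu-8* (97.0 FPKM at L4, 268 at L2) and *abu-10* (31.8 at L4, 85.3 at L2) were called lower, both with values outside their intervals.

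Several regulators of nerve cell birth and identity were called lower. *cnd-1*, a NeuroD-type factor of motor neuron precursors, had 0.292 FPKM (0 to 0.541) at L4, against 6.58 (3.63 to 8.84) at L2. *egl-46*, a zinc finger gene that acts in late divisions of neural lineages, had 1.29 FPKM (0.60 to 1.97) at L4, against 9.65 (7.81 to 11.6) at L2. *ztf-11*, a MYT1-type neurogenic factor, had 2.36 FPKM (1.62 to 3.11) at L4, against 11.9 (10.1 to 13.8) at L2. *hlh-3*, an achaete-scute relative, had 0.552 FPKM (0.104 to 0.933) at L4, against 4.19 (2.28 to 5.43) at L2, and *hlh-2*, the partner of such proneural proteins, had 5.53 (4.03 to 6.74) at L4, against 14.9 (11.6 to 16.7) at L2. *ces-1*, a Snail-type gene that controls the death of particular nerve cell sisters, was listed at 0 at L4 and had 3.65 FPKM (1.91 to 4.68) at L2. These 6 genes were not fixed as a list, and no count over a class of such regulators was made. Their levels at L1 fell into different patterns. *cnd-1* stood at 1.23, 6.58, 0.297 and 0.292 FPKM at L1, L2, L3 and L4, and *ces-1* at 0.283, 3.65, 0.408 and 0. Both were highest at L2, whereas *hlh-3* stood at 13.5, 4.19, 0.701 and 0.552 and was highest at L1.

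Genes of mature neurons were lower at L4 by less than 2-fold as a rule. All 18 synaptic vesicle genes compared had a negative log2 difference, with a median of -0.56, and in 17 of the 18 the interval at L4 lay wholly below that at L2, against 13.3% of all genes compared. 1 of them was called, *unc-2*, which encodes a presynaptic calcium channel. *rab-3*, a GTPase of synaptic vesicles, was at 40.9 FPKM (36.9 to 44.9) at L4 and 69.5 (64 to 75.1) at L2. *egl-3* and *egl-21*, which cut and trim neuropeptides, were at 172 (166 to 180) and 125 (118 to 132) at L4, against 263 (257 to 274) and 181 (173 to 190) at L2. Negative differences followed in 28 of 30 *flp* genes (median -0.42) and in 67 of 81 genes of the neuropeptide-like list (median -0.52). The interval at L4 lay wholly below that at L2 in 8 of the 30 and 23 of the 81, and wholly above in 0 and 3. In 18 of the 30 and 41 of the 81 a value lay outside its own interval. Without these genes the medians were -0.24 and -0.52. The neuropeptide-like list holds *nlp* genes and also *cnc* genes. *flp-1*, an FMRFamide-like peptide gene, was at 94.8 FPKM (85.1 to 104) at L4 and 161 (148 to 175) at L2. In these lists 1 *flp* gene and 4 members of the neuropeptide-like list were called lower. The 2 members of that list called higher were *cnc-9* and *cnc-11*. A single one of the 7, the lower *nlp-48*, had both values inside their intervals. Of 16 genes of transmitter synthesis and transport compared, none was called, 12 had a negative difference and 4 a positive one. The interval at L4 lay wholly below that at L2 in 6 and wholly above in 1. *unc-17*, the acetylcholine transporter of vesicles, was at 11.9 FPKM at L4 and 20.0 at L2. *mec-7*, the tubulin of touch neurons, was called lower, with 33.5 FPKM (30.4 to 36.7) at L4, against 71.2 (66.2 to 76.3) at L2. It was the 1 called lower of 15 tubulin genes compared. The 1 called higher was *tbb-6*, with 31.5 FPKM (25.3 to 31.9) at L4, against 12.2 (9.29 to 13.3) at L2.

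Sarcomere genes of muscle went both ways, by less than 2-fold. Of 30 none was called, against 5.03% higher and 2.38% lower over all genes compared, and the median was -0.04. The interval at L4 lay wholly above that at L2 in 13 and wholly below in 13, against 12.2% above and 13.3% below over all genes compared. *unc-54*, the main body wall myosin, was at 1319 FPKM at L4 and 1138 at L2, and *myo-3*, the minor one, at 216 at L4 and 294 at L2, with all 4 values outside their intervals. *lev-11*, tropomyosin, was at 1595 FPKM (1591 to 1645) at L4 and 1548 (1536 to 1598) at L2. Ribosomal protein genes had a median of 0.03 over 77. The 1 call among them was *rpl-11.1*, at 443 FPKM (420 to 467) at L4 and 153 (141 to 166) at L2.

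Genes of vulva and uterus development were called lower in 5 of 28 cases and higher in 1, against 2.38% lower and 5.03% higher over all genes compared. Of the 5, *lag-2* encodes a signal and the others transcription factors. *lag-2*, a ligand of the Notch receptors LIN-12 and GLP-1, had 1.61 FPKM (0.843 to 2.32) at L4, against 8.23 (5.74 to 9.42) at L2. *hlh-2* and *hlh-3*, given above among the neural regulators, *vab-23*, a zinc finger gene (10.6 FPKM at L4, 23.9 at L2), and *nhr-67*, a tailless-type receptor (1.12 at L4, 3.24 at L2), made up the rest. The higher one was the receptor *glp-1*, which thus went the opposite way to its ligand. *lag-2* stood at 11.7, 8.23, 1.72 and 1.61 FPKM at L1, L2, L3 and L4. Of 16 larval timing genes compared, 1 was called higher and 1 lower, near the 5.03% and 2.38% of all genes compared. Their median was -0.40, and the interval at L4 lay wholly below that at L2 in 9 and wholly above in 2. *hbl-1*, a hunchback-type factor, was called lower, at 14.3 FPKM (12.9 to 15.6) at L4 and 30.8 (28.5 to 33) at L2. *mab-10*, a cofactor of LIN-29 at the passage to the adult, was called higher, at 15.7 (12.58 to 16.9) at L4 and 7.19 (5.45 to 8.53) at L2. The number of timing genes called higher was 0 after rescaling to TPM and 2 with a pseudocount of 0.1.

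Linker histone genes split by member. *hil-7* showed the largest difference of the named genes called lower, at 4.62 FPKM (2.02 to 7.29) at L4 and 80.9 (70.2 to 91.5) at L2, a log2 difference of -3.86. It stood at 24.6, 80.9, 17.2 and 4.62 FPKM at L1, L2, L3 and L4, so that L2 was above both its neighbours. *his-24* was lower as well, at 134 FPKM at L4 and 369 at L2, with both values outside their intervals. *hil-1*, *hil-4* and *hil-5* were called higher, at 6.08, 58.1 and 104 FPKM at L4, against 2.29, 21 and 41.4 at L2, and of these *hil-1* had both values inside their intervals. Core histone mRNAs in animals mostly lack a poly(A) tail, and 34 of the 68 core histone genes compared had a value outside its interval. Of the 68, 5 were called higher and 1 lower, not far from the 5.03% and 2.38% of all genes compared. None of the 5 had both values inside their intervals.

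**Figure D5:**
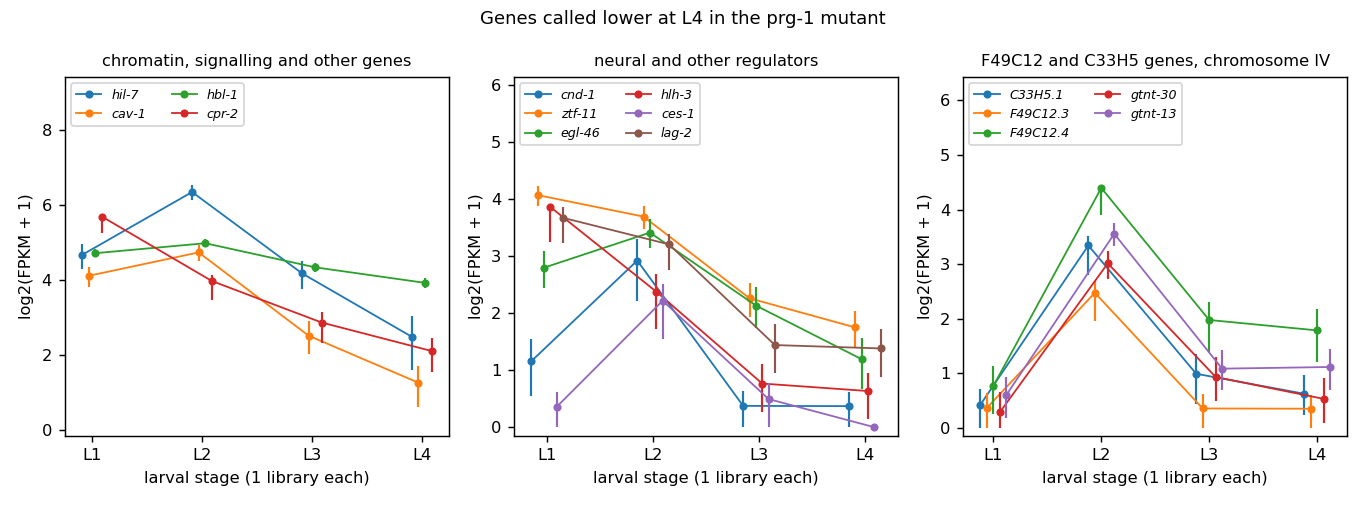
Levels (vertical axes, log2(FPKM + 1)) of genes called lower at L4 in the 4 larval libraries (horizontal axes, 1 library per stage), with points for the deposited value and vertical lines for its 95% interval. *hil-7*, *cnd-1*, *ces-1* and the F49C12 and C33H5 genes peak at L2, while *hlh-3*, *lag-2* and *cpr-2* are highest at L1.

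Genes of fat transport and digestion included some of the most abundant transcripts on the higher side. *far-2* and *far-3*, which encode secreted fatty acid and retinol-binding proteins, had 1510 FPKM (1470 to 1568) and 175 (162 to 188) at L4, against 188 (175 to 201) and 35.2 (29.5 to 40.6) at L2. *far-1*, of the same family, was level at 2251 FPKM at L4 and 2261 at L2. Of 16 lipid-binding protein genes 4 were called higher, against 5.03% of all genes compared, and none lower. The fatty acid desaturase genes *fat-5* and *fat-7* were called higher, with 26.3 FPKM (22.9 to 28) and 2.45 (1.36 to 3.40) at L4, against 6.97 (5.68 to 8.23) and 0.532 (0.158 to 0.950) at L2, and so was the elongase *elo-4*. *fat-2* was at 376 FPKM at L4 and 328 at L2 and was not called. Among proteases, *cpr-4*, a cathepsin B gene, had 1013 FPKM (996 to 1050) at L4, against 484 (469 to 505) at L2, while *cpr-2*, of the same family, was lower, with 3.32 (1.91 to 4.49) at L4, against 14.8 (10.2 to 16.8) at L2. *ilys-5*, an invertebrate-type lysozyme, had 116 FPKM (104 to 127) at L4, against 29.1 (23.7 to 34.6) at L2. *daf-9*, the cytochrome P450 that makes the steroid hormone dafachronic acid, had 7.90 FPKM (6.60 to 9.21) at L4, against 1.95 (1.32 to 2.59) at L2. It was 1 of 7 cytochrome P450 genes called higher among 63, with none lower, against 5.03% and 2.38% of all genes compared. The 7 were 4 after rescaling to TPM and 12 with a pseudocount of 0.1. *sod-3*, a mitochondrial superoxide dismutase, had 26.2 FPKM (22.4 to 29.97) at L4, against 5.66 (3.82 to 7.35) at L2.

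Called genes also lay side by side. There were 16 runs of at least 3 neighbouring protein-coding genes that were called higher, with 59 genes, and 2 such runs that were called lower, with 8 genes. No background number of runs was worked out, so these counts are a description only. Coordinates here are those of the files, counted from 1, with the build named in the submitters' notes as ce10. A run of 5 genes called lower lay on chromosome IV from 9294899 to 9307165, from F49C12.1 to *gtnt-30* (listed as F49C12.5). Within it F49C12.2 had 3.61 FPKM at L4, against 25.8 at L2, F49C12.4 had 2.44 (1.31 to 3.51) at L4, against 20.1 (13.9 to 20.7) at L2, and *gtnt-30* had 0.442 (0.0631 to 0.883) at L4, against 7.07 (5.62 to 8.47) at L2. These genes were high at L2 alone, as F49C12.4 stood at 0.701, 20.1, 2.93 and 2.44 FPKM at L1, L2, L3 and L4. C33H5.1 and *gtnt-13* (listed as C33H5.2), elsewhere on the same chromosome, took the same course, with 0.538 and 1.16 FPKM at L4, against 9.13 and 10.7 at L2.

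Runs of genes called higher included 2 of 5 genes each on chromosome V, from 7252325 to 7272787 and from 7275791 to 7295381, with C13A2.12 at 68.5 FPKM at L4 (above its interval of 54 to 65.9) and 6.16 at L2, and C13A2.9 at 23.1 (16.4 to 23.4) at L4 and 1.23 (0.533 to 1.86) at L2. Farther along chromosome V, D1086.10 had 26.8 FPKM (22.4 to 31.3) at L4 and was listed at 0 at L2. On chromosome II a run of F45D11.14, F45D11.15 and F45D11.16 was listed with nearly the same values, 325 FPKM at L4 and 47.8 at L2 for F45D11.16, so these may share reads and count as 1 signal. Such neighbours can be paralogs, and overlapping genes could not be separated by strand, whose use is not given in the sources used here. 146 of the 778 genes called higher and 101 of the 368 called lower overlap another listed gene. The share over all genes compared was not counted, so these numbers show no lean of the called genes. By chromosome, protein-coding genes were called higher most often on V (7.39%) and least often on III (3.10%), with 4.47% on X, and called lower in 1.67% (III) to 3.18% (V).

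The L3 library placed the differences in time. Of the 778 genes called higher at L4, L3 lay between L2 and L4 in 555, nearer to L2 in 355 of them and nearer to L4 in 200. It was below both in 163 and above both in 59. Of the 368 genes called lower, L3 lay between in 288, nearer to L4 in 171 of them and nearer to L2 in 117. By the same rule of size, 550 genes were higher at L4 than at L3 (3.61% of 15217) and 241 were higher at L3 than at L2 (1.59% of 15151). In the other direction 83 were lower at L4 than at L3 (0.545%) and 460 were lower at L3 than at L2 (3.04%). These comparisons share the L3 library with each other and the L4 or L2 library with the comparison above, so their counts are not independent of it.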

How the data were processed

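Poly(A) RNA of *prg-1* mutant whole worms at L4 and L2 was compared, with 1 library per stage. According to the submitters' processing notes, reads were mapped with TopHat2 (2.0.8) and levels estimated with Cufflinks (2.1.1) on genome build ce10. The authors deposited FPKM per gene with a 95% interval and a status. Neither the annotation release nor how multi-mapping or strand was handled is given in the sources used here. Near-identical and overlapping genes are therefore uncertain.

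Genes were joined on identifier and position. Differences were computed on log2(FPKM + 1), which understates those of low genes, with Python 3.11.15, numpy 2.4.6, pandas 2.3.3 and matplotlib 3.10.9, and the steps were tested on simulated data. Current symbols came from the WBcel235 RefSeq table, and 45649 of 46096 genes matched. 54 gene lists were examined.

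The lists, the rules and the genes compared were chosen with earlier results of these data known. After values were seen, the *srp* serpin genes were taken out of the chemoreceptor list and the *msrp* genes out of the sperm list, since neither fits the name of its list. Named genes are the 20 with the largest difference in each direction among called protein-coding genes with values inside their intervals, the 5 highest per library, up to 4 per list by level and by difference in each direction, those nearest the bound, stage markers and the genes singled out in the study. *col-42*, *grl-20*, *grd-12*, *wrt-8*, *gsp-3*, *spe-44*, *cpb-1*, *rab-3*, *hlh-2*, *nhr-67* and members of neighbouring runs were added after their values were seen, where that rule does not name them.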

Additional observations from a re-analysis of the deposited data

How the results depend on the processing

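The counts of 778 genes higher and 368 lower depended most on the size bound and on the intervals. With 4-fold in place of 2-fold they were 238 and 47, and without the intervals 1477 and 1181, where 55.6% of calls were higher in place of 67.9%. With a level of at least 5 FPKM in one library, 492 genes were higher. A pseudocount of 0.1 gave 953 and 539, rescaling to TPM 689 and 353, median-ratio rescaling 810 and 336, and protein-coding genes alone 716 and 334. Without the filter on low values the counts stayed at 778 and 368 by construction. A gene under 1 FPKM in both libraries cannot reach the 2-fold bound with a pseudocount of 1, so this says nothing about the filter. Leaving out genes whose FPKM lies outside its own interval gave 618 and 282. That choice lowered the number of lists with at least 25% of their members called from 14 to 8, left 29 collagens called higher in place of 62, left no core histone gene called higher and no *abu* gene called lower, and moved the median of the nspa to nspe peptide genes to -0.17, against 0.81. No paired analysis was possible because L4 and L2 are represented by 1 library each, and no replicate could be left out. The depth of 1 library per stage limits every statement to these libraries.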

Other observations

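Further gene families were described by the same rule. Of 100 C-type lectin genes compared, 9 were called higher at L4 and 2 lower, among them *clec-60* and *clec-61*, at 6.66 FPKM (4.64 to 7.97) and 8.64 (6.11 to 9.80) at L4, against 1.70 (0.958 to 2.39) and 2.09 (1.19 to 2.95) at L2. Of 51 genes with MATH or BATH domains 7 were called higher and none lower, and of 105 F-box genes of the *fbxa* group 6 were called higher and none lower, against 5.03% and 2.38% of all genes compared. *fbxa-27* had 6.17 FPKM (3.83 to 7.41) at L4, against 1.27 (0.547 to 1.92) at L2. The list of *nspa* to *nspe* peptide genes leaves out *nspd-1*, *nspd-2* and *nspd-5*, which were called higher and counted with the sperm genes. Of 46 members compared, 8 were called higher and 2 lower, but 41 of the 46 had a value outside its own interval. The runs of *nspc* genes called higher on the X chromosome rest largely on such values, and 1 of the 8 had both values inside, *nspc-15*, with 156 FPKM (137 to 176) at L4, against 63.7 (52.1 to 75.3) at L2.

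Nuclear hormone receptor genes had few calls, against 5.03% higher and 2.38% lower over all genes compared. Of 182 nuclear hormone receptor genes compared, 1 was called higher, *nhr-155* (2.49 FPKM at L4, 0.408 at L2), and 2 were called lower. Of 1629 chemoreceptor genes, 44 were compared, and 1 of these was called higher and 2 lower. *srr-4* had 12.5 FPKM (10.6 to 14.6) at L4, against 34.0 (30.5 to 37.5) at L2. The 1 called higher was *srbc-15*, annotated as a pseudogene, with 13.5 (8.68 to 14.3) at L4, against 3.86 (2.07 to 5.17) at L2. Small heat shock genes of the *hsp-16* group were called lower in 2 of 7 cases, against 2.38% of all genes compared. The 2 were 1 after median-ratio rescaling and 1 without genes outside their own interval, where the median was -0.44 in place of -0.97. The one inside its intervals was *hsp-16.41*, at 0.223 FPKM (0 to 0.436) at L4 and 2.33 (0.760 to 3.65) at L2. Proteasome subunit genes, in contrast, had no call in 31, with a median of 0.15.

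Of the genes called higher, 33.4% belonged to one of the 54 lists, while 12.5% of the genes called lower did, against 12.9% of all genes compared. The lists were chosen with earlier results of these data known, so these shares depend on that choice and are a description only.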
